A study of Mus musculus with 2 samples.

Results

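The respiratory chain subunit genes are the nuclear genes for the protein subunits of mitochondrial complexes I to IV, and they were examined for islands of Hdac1 and Hdac2, the histone deacetylases of class I that serve as catalytic subunits of several corepressor complexes. Members were the RefSeq protein-coding genes on chromosomes 1 to 19 whose symbols begin with Ndufa, Ndufb, Ndufc, Ndufs, Ndufv or Ndufab and end in a number, all symbols that begin with Uqcr, the genes Sdha to Sdhd, and all symbols that begin with Cox4 to Cox8. They numbered 65 of 20665 genes, with 36 in complex I, 4 in complex II, 8 in complex III and 17 in complex IV. The symbols chose the members and no measured value did.

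The study profiled nephron progenitor cells, the mesenchymal cells of the fetal kidney from which the nephron epithelium forms. The cells came from kidneys of wild-type mice at E16.5, were expanded in culture and were crosslinked with formaldehyde. Chromatin of these cells was precipitated with anti-Hdac1 for 1 library and with anti-Hdac2 for the other, and neither has a replicate. The files hold islands, which are regions of the genome build mm10 called by the authors as enriched in reads over background. Each island carries 1 value of the authors, either a p-value or a q-value, and a lower value stands for a stronger island within its own list only. The antibodies differ in epitope and, by the names of the deposits, in amount used, so differences between the lists below cannot be told apart from differences between the antibodies. Shares and counts describe these libraries, and no test between them was possible.

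The respiratory chain passes electrons from NADH and succinate to oxygen and pumps protons across the inner mitochondrial membrane. Complex I oxidises NADH, complex II oxidises succinate, complex III passes electrons from ubiquinol to cytochrome c, and complex IV reduces oxygen. A few subunits are encoded in mitochondrial DNA, and all others come from nuclear genes scattered over the chromosomes, many of them with promoters that bind Nrf1, the ETS factor Gabp and Yy1. Kidney tubule cells, which descend from nephron progenitors, are rich in mitochondria.

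The Hdac1 list held 30182 islands and the Hdac2 list 20307, with a median width of 2.0 and 2.8 kb over all chromosomes. Of these, 29695 and 19450 lay on chromosomes 1 to 19. Read depth is unknown for both. At the progenitor genes Six2, Sall1, Eya1, Osr1 and Wt1, 5 of 5 loci carried islands of both antibodies at a gene end.

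A set of 5 promoters shows the range of sequence among the members, which bears on the islands because nearly all of them lie over start sites. These are the RefSeq sequences from 250 bases before to 50 bases after the start site in build GRCm38.p6, the same assembly as mm10. The first 4 belong to the member of each complex with the lowest Hdac1 value at a span end among those with a RefSeq promoter. The last belongs to Cox8b, an isoform gene with no Hdac1 island. For Ndufv2 the lowest-value island lies at the end away from the printed promoter, and the island over its start site had 1.52e-47. All 5 lie on the minus strand, at chr17:66101510-66101809 for Ndufv2, chr9:50603800-50604099 for Sdhd, chr4:116075021-116075320 for Uqcrh, chr19:7217567-7217866 for Cox8a and chr7:140900397-140900696 for Cox8b. Capitals mark matches, on either strand, to the ETS motif CCGGAAG or the GC box GGGCGG.
Ndufv2: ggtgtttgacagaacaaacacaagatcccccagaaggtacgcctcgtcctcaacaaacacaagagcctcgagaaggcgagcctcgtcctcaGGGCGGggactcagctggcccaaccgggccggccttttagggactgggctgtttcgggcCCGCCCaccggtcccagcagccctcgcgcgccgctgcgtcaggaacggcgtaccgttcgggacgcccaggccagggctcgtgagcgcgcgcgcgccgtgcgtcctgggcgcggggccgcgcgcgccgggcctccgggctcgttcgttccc
Sdhd: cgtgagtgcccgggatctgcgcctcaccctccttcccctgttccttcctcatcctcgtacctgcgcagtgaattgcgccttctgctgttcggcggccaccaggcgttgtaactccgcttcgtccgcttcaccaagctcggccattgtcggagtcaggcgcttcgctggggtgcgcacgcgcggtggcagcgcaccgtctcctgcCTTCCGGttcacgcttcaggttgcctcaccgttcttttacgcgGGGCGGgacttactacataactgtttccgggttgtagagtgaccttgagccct
Uqcrh: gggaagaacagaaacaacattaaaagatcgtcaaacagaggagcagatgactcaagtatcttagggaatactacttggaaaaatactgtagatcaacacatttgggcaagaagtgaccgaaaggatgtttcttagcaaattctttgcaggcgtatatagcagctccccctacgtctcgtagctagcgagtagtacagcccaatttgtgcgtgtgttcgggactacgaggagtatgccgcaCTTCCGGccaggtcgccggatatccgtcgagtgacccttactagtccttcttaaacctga
Cox8a: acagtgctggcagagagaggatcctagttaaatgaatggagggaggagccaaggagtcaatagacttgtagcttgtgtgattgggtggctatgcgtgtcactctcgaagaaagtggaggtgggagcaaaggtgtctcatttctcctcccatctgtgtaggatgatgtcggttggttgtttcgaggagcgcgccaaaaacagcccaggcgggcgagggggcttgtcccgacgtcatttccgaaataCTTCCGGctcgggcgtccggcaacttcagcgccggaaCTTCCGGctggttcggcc
Cox8b: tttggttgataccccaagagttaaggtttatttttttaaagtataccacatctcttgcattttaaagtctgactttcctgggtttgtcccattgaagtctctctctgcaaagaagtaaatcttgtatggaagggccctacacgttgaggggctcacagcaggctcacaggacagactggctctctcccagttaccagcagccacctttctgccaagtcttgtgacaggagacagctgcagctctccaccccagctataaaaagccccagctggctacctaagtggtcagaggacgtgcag
The Ndufv2 sequence held 39 CpG dinucleotides and the Sdhd sequence 29. Uqcrh had 15 and Cox8a 19, while Cox8b had 2. The ratio of observed to expected CpG was 1.04 for Ndufv2, 1.02 for Sdhd, 0.920 for Uqcrh, 0.842 for Cox8a and 0.115 for Cox8b. Cox8b thus had the lowest ratio of the 5. These promoters were picked by their islands, so no relation of CpG to islands is read from them.

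An Hdac1 island lay within 1 kb of a gene end at 59 of the 65 subunit genes, or 90.8%, against 62.7% of all genes. An Hdac2 island lay there at 13 members, or 20%, against 33.4% of all genes. All 13 also carried Hdac1, and islands of both were found at 20% of members against 32.4% of all genes. No member had Hdac2 without Hdac1, and over all genes 6699 of the 6907 with Hdac2 also carried Hdac1. Among genes that carried Hdac1 at an end, Hdac2 was found at 13 of 59 members, or 22.0%, against 51.7% over all genes. The share with Hdac1 was thus above that of all genes, and the share with Hdac2 was below it.

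**Figure D1:**
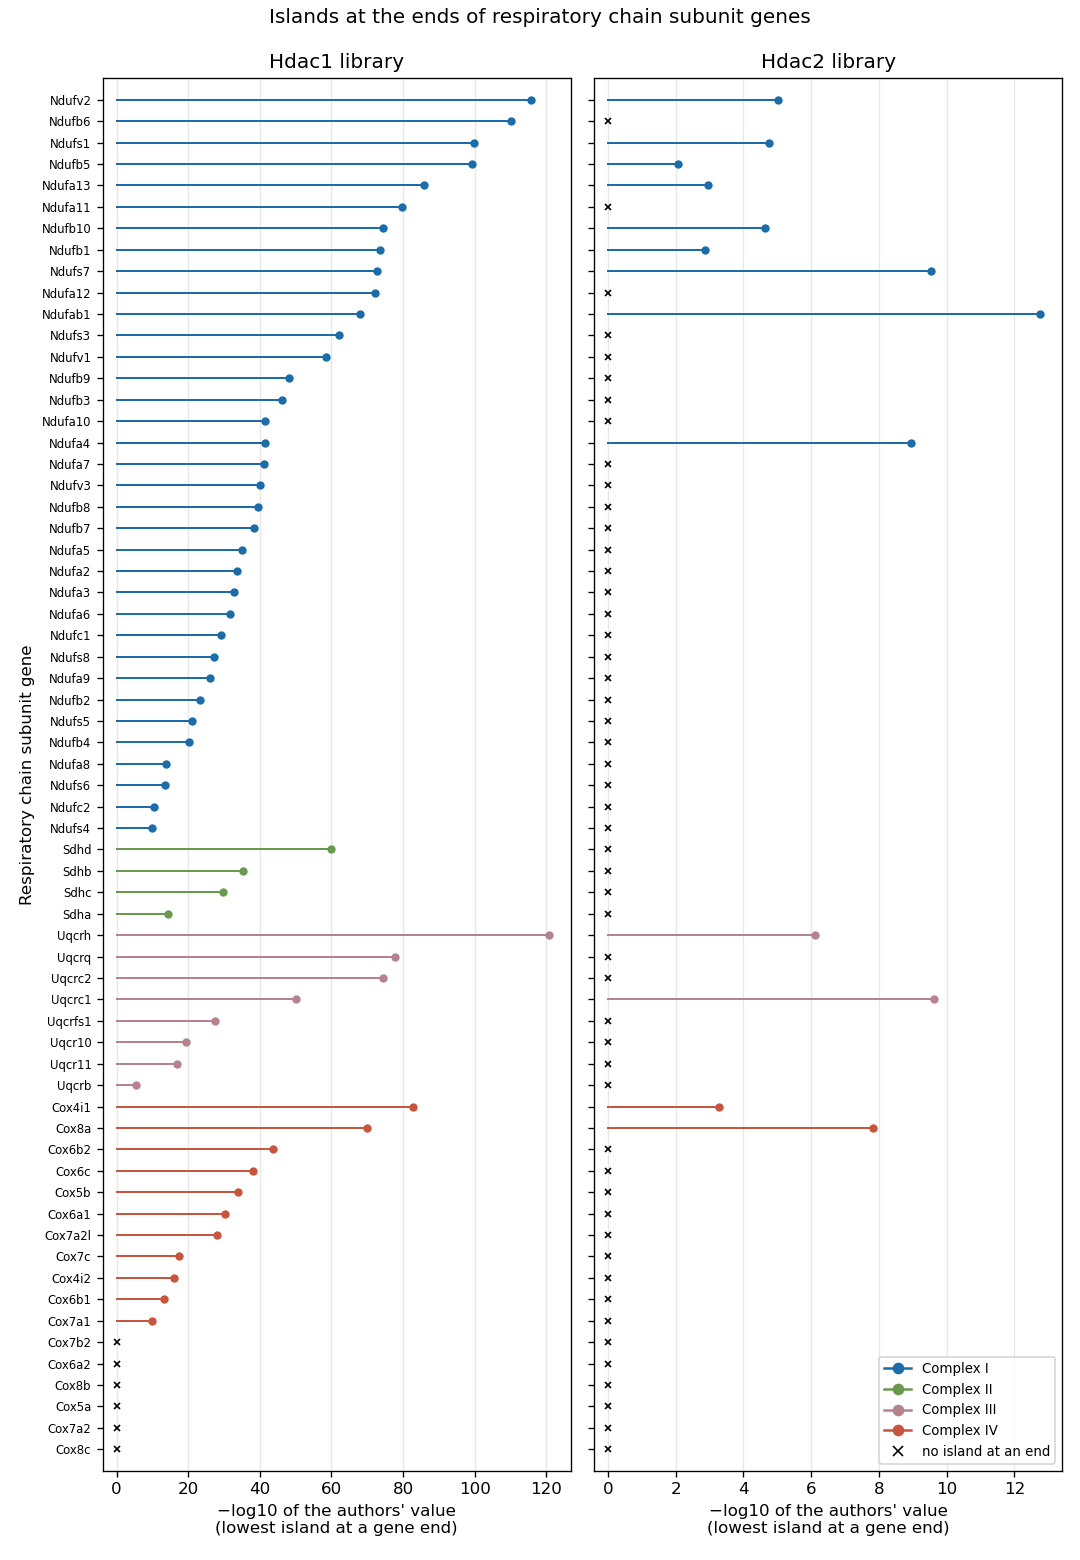
Each line is 1 of 64 subunit genes, grouped by complex, and its length is the −log10 of the authors' value for the lowest-value island within 1 kb of a gene end in the Hdac1 library (left) and the Hdac2 library (right); a cross marks a gene with no island at an end. The scales of the panels differ and cannot be compared, and 58 genes have a line on the left and 13 on the right.

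All 36 complex I genes carried Hdac1 at an end, against 62.7% of all genes, and 9 (25%) carried Hdac2, against 33.4%. Of the 7 core subunits, which hold the flavin and the iron-sulfur clusters that carry electrons, 7 had Hdac1 and 3 had Hdac2 (Ndufs1, Ndufs7 and Ndufv2). The Hdac2 share of the core subunits, 42.9%, was thus above that of all genes, unlike that of complex I as a whole, but rests on 7 genes. Ndufv2, a core subunit of the NADH-oxidising module on chromosome 17 (66078795 to 66101559), had the lowest Hdac1 value of complex I. That island, 3.8 kb wide with a value of 1.84e-116, lay at the end away from the start site and also held an end of Ankrd12. At its start site Ndufv2 had an Hdac1 island of 3.0 kb and 1.52e-47, with an Hdac2 island of 1.2 kb and 9.38e-06 inside it. A second Hdac2 island, 3.6 kb wide at 0.00392, lay at the far end. Each Hdac2 island of Ndufv2 therefore overlapped an Hdac1 island, but the lowest-value islands of the antibodies lay at opposite ends, which occurred at no other member.

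Ndufs1, the largest core subunit, on chromosome 1 (63143592 to 63176822), had an Hdac1 island of 2.6 kb and 1.19e-100 and an Hdac2 island of 2.2 kb and 1.82e-05, and both also held an end of Eef1b2. Ndufs7, which holds the last cluster before ubiquinone, on chromosome 10 (80249105 to 80256794), had 2.10e-73 in the Hdac1 list and 2.93e-10 in the Hdac2 list. The islands of Ndufs7 had the same outline in both lists, from 80247801 to 80250000, or 2.2 kb. Other core genes had Hdac1 alone. Ndufv1, which binds NADH and flavin, on chromosome 19 (4007499 to 4012755), had 1.4 kb and 3.34e-59. Ndufs3, on chromosome 2 (90894627 to 90904721), had 2.6 kb and 7.17e-63, and Ndufs8, which holds a pair of clusters, on chromosome 19 (3908863 to 3912774), had 1.8 kb and 5.59e-28. The core genes named here thus had Hdac1 values from 1.84e-116 at Ndufv2 to 5.59e-28 at Ndufs8.

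Among accessory subunits of complex I, 6 genes carried both antibodies. Ndufab1, the mitochondrial acyl carrier protein, on chromosome 7 (122086815 to 122101848), had the lowest Hdac2 value among islands at the members' span ends, 1.71e-13 in an island of 1.0 kb, inside an Hdac1 island of 1.8 kb and 8.17e-69. Ndufa4, named for complex I and since placed in complex IV, had an Hdac1 island of 2.6 kb and 3.04e-42 and an Hdac2 island of 1.0 kb and 1.17e-09. Ndufb1, a small membrane-arm subunit, had 1.99e-74 in the Hdac1 list and 0.00133 in the Hdac2 list. At Ndufa4 the islands also held an end of Phf14, and at Ndufb1 an end of Cpsf2. Ndufa13, also known as Grim19, had an Hdac1 island of 3.4 kb and 1.37e-86 and an Hdac2 island of 3.2 kb and 0.00111, each of which also held an end of Tssk6. Ndufb5, a membrane-arm subunit that shares its island with Mrpl47, had 6.50e-100 in the Hdac1 list and 0.00849 in the Hdac2 list, the highest Hdac2 value among members.

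At Ndufb10, a membrane-arm subunit on chromosome 17 (24722060 to 24724423), the Hdac2 island (1.8 kb, 2.33e-05) lay wholly outside the gene, 0.660 kb beyond the end away from the start site. It overlapped an Hdac1 island of 2.6 kb and 5.19e-75 that also lay outside the gene. Rps2, among the cytosolic ribosomal protein genes below, was counted from the same pair of islands. The Hdac1 island over the Ndufb10 gene itself had a value of 3.40e-21 and did not overlap an Hdac2 island. Ndufb6, another membrane-arm subunit, on chromosome 4 (40270591 to 40279421), had one of the 3 lowest Hdac1 values, 5.64e-111 at 2.6 kb. That island lay just outside the far end of Ndufb6, over ends of Smim27 and Topors, and the island at the Ndufb6 start site had 1.2 kb and 2.45e-68.

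The other 22 accessory genes of complex I carried Hdac1 and no Hdac2 at an end, as did Ndufb6. Their Hdac1 values ran from 2.54e-80 at Ndufa11 to 1.64e-10 at Ndufs4. Ndufa12 followed Ndufa11 closely, at 7.18e-73. Between these and Ndufs4 lay Ndufb9, Ndufb3, Ndufa10, Ndufa7, Ndufv3, Ndufb8, Ndufb7, Ndufa5, Ndufa2, Ndufa3, Ndufa6, Ndufc1, Ndufa9, Ndufb2, Ndufs5, Ndufb4, Ndufa8, Ndufs6 and Ndufc2, given here from lower to higher value. The widest island of any member, 5.2 kb, was that of Ndufa7, where it also held ends of Kank3 and Rps28, and Ndufc2 had one of the narrowest, 0.8 kb.

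All 4 genes of complex II, succinate dehydrogenase, carried Hdac1 at an end and none carried Hdac2, against 62.7% and 33.4% of all genes. Sdha, the flavoprotein that oxidises succinate, on chromosome 13 (74322255 to 74350240), had 1.8 kb and 5.21e-15. Sdhb, the iron-sulfur subunit, on chromosome 4 (140961271 to 140979198), had 2.4 kb and 6.62e-36. The membrane anchors were Sdhc, on chromosome 1 (171129157 to 171150640), with 2.0 kb and 2.51e-30, and Sdhd, on chromosome 9 (50596340 to 50603849), with 1.6 kb and 9.93e-61. The catalytic Sdha gene had the weakest island of the complex, and Sdhd, whose island also held an end of Timm8b, the strongest.

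All 8 complex III genes carried Hdac1, against 62.7% of all genes. Uqcrh and Uqcrc1 (25%) also carried Hdac2, against 33.4% of all genes. Uqcrh, the hinge protein beside cytochrome c1, on chromosome 4 (116066965 to 116075070), had the lowest Hdac1 value of all 65 members, 1.79e-121 over 4.8 kb. The Hdac2 island of Uqcrh had 3.6 kb and 7.67e-07, lay wholly within the Hdac1 island and, like it, held an end of Lrrc41. Uqcrc1, a core protein on chromosome 9 (108936648 to 108949641), had 5.87e-51 in the Hdac1 list and 2.36e-10 in the Hdac2 list, in islands of 1.6 kb with the same outline. Uqcrc2, the other core protein, on chromosome 7 (120635189 to 120659523), had an Hdac1 island of 2.4 kb and 4.62e-75 and no Hdac2 island within 122.2 kb of the gene. Uqcrfs1, the Rieske iron-sulfur protein, on chromosome 13 (30540312 to 30545316), had 2.0 kb and 3.46e-28 in the Hdac1 list alone. The core proteins thus differed, since the one with the lower Hdac1 value had no Hdac2 island. The small subunits Uqcrq, Uqcr10 and Uqcr11 had Hdac1 values of 1.41e-78, 3.56e-20 and 1.58e-17, and the Uqcrq island also held an end of Gdf9. Uqcrb, a subunit at the ubiquinone side, had the highest Hdac1 value when the lowest-value end island of each member was taken, 3.99e-06 over 3.2 kb, with ends of Gm10767 and Mterf3 in it.

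All 6 members without an Hdac1 island at an end belonged to complex IV. Of its 17 genes, 11 carried Hdac1 at an end, or 64.7%, which lies near the 62.7% of all genes. Hdac2 was at an end of 2, or 11.8%, against 33.4% of all genes. Another 2 genes, Cox5a and Cox7a2, had an Hdac1 island in the gene body and none at an end. They were 3.08% of the 65 members, against 5.78% of all genes. Cox5a alone had an Hdac2 island of that kind, or 1.54% of members, against 7.80% of all genes. For both genes the annotated span begins upstream of the RefSeq start site, and the body islands cover that start site. Cox5a, a subunit on the matrix side, on chromosome 9 (57517328 to 57532427), had an Hdac1 island of 2.4 kb and 1.28e-79 and an Hdac2 island of 1.4 kb and 1.66e-15 there. Cox7a2, on chromosome 9 (79755241 to 79771422), had an Hdac1 island of 1.8 kb and 9.22e-31. With start sites counted as well as span ends, 61 members (93.8%) carried Hdac1, against 64.5% of all genes, and 14 (21.5%) carried Hdac2, against 34.8%.

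The 4 members left with no island of either antibody at an end, at a start site or in the body were Cox6a2, Cox7b2, Cox8b and Cox8c. All are isoforms known mainly from muscle or testis in adult mammals. Of the 7 tissue-restricted isoform genes in the annotation, 3 (42.9%) carried Hdac1 at an end and 0 carried Hdac2. The shares of all genes were 62.7% and 33.4%. Of the 10 widely expressed genes of complex IV, 8 (80%) carried Hdac1 at an end, and 10 did with start sites counted. Hdac2 was found at 2 (20%) of the 10 at an end, and at 3 (30%) with start sites counted. With start sites counted, the shares of all genes were 64.5% for Hdac1 and 34.8% for Hdac2.

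Set beside each other, the isoform pairs differed in several ways. Cox4i1, the common form of the largest nuclear-encoded subunit, on chromosome 8 (120668225 to 120674209), had an Hdac1 island of 4.6 kb and 2.12e-83 and an Hdac2 island of 2.0 kb and 0.000518, both with ends of Emc8 and Gm27021. Cox4i2, the form of lung, on chromosome 2 (152753916 to 152765039), had an Hdac1 island of 3.8 kb and 7.81e-17 at its higher-coordinate end and no Hdac2 island. Both Cox4 genes thus had Hdac1, and the stronger island was that of the common form. Cox6a1, on chromosome 5 (115345652 to 115348958), had an Hdac1 island of 3.8 kb and 6.96e-31. Cox6a2, its form in heart and skeletal muscle, on chromosome 7 (128205435 to 128206366), had none, and the nearest islands were 25.2 kb away for Hdac1 and 30.4 kb for Hdac2. In the Cox6b pair the order was the other way round. Cox6b2, the testis form, on chromosome 7 (4751792 to 4753094), had 2.6 kb and 1.97e-44 in an Hdac1 island that also held an end of Fam71e2, while Cox6b1, on chromosome 7 (30616971 to 30626114), had 1.2 kb and 6.26e-14.

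Cox7a1, the form in heart and skeletal muscle, on chromosome 7 (30184171 to 30186030), had an Hdac1 island of 0.8 kb and 1.36e-10, narrower and weaker than the 1.8 kb island at the start site of its common form Cox7a2. Cox8a, the common form of that subunit, on chromosome 19 (7215158 to 7217616), had an Hdac1 island of 3.0 kb and 1.23e-70 and an Hdac2 island of 3.2 kb and 1.52e-08. Cox8b, the muscle form, on chromosome 7 (140898942 to 140900446), had no island, and the nearest lay 7.96 kb away for Hdac1 and 16.1 kb for Hdac2. Cox8c, the testis form, on chromosome 12 (102899306 to 102900534), had none within 6.11 kb for either antibody. Cox7b2, also of testis, on chromosome 5 (71442823 to 71548205), had its nearest Hdac1 island 150.8 kb and its nearest Hdac2 island 8.40 kb away. No tissue-restricted form had Hdac2 (0 of 7, against 33.4% of all genes), and the common form had it in the Cox4 and Cox8 groups. The remaining widely expressed genes were Cox6c (6.20e-39, 1.8 kb), Cox5b (9.73e-35, 1.6 kb), Cox7a2l (9.04e-29, 2.4 kb) and Cox7c (4.23e-18, 1.4 kb), all with Hdac1 alone.

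**Figure D2:**
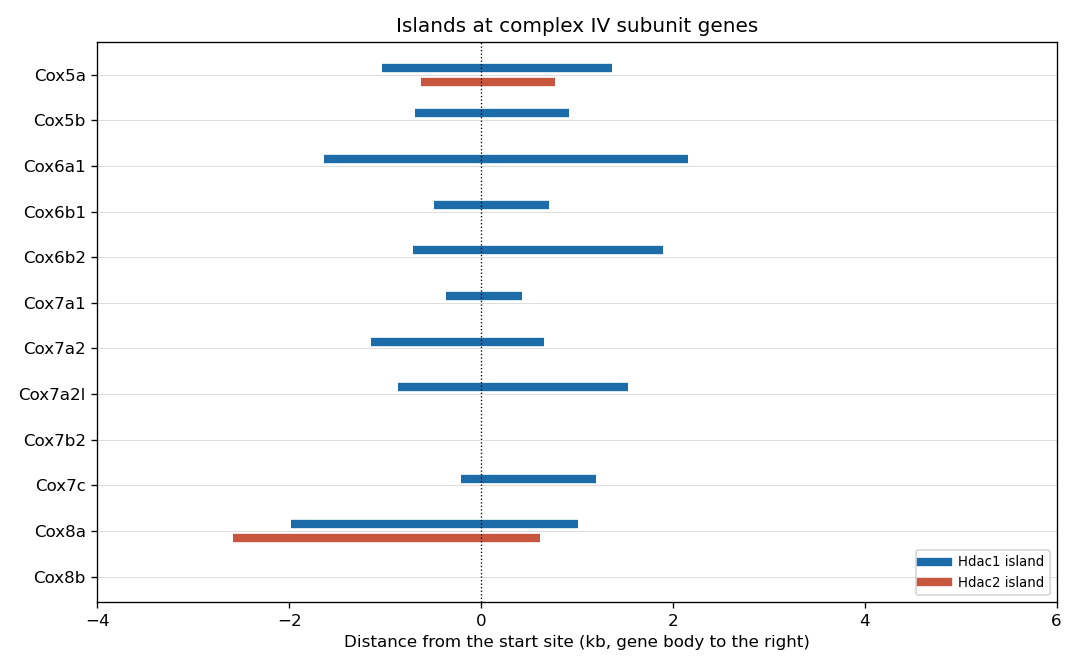
Islands at the 12 complex IV genes with a RefSeq start site, drawn by distance from the start site in kb with the gene body to the right; blue bars are Hdac1 islands and red bars Hdac2 islands. Cox7b2 and Cox8b have no bar, and Cox5a and Cox8a are the 2 genes with both.

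At the median, islands of the members were weaker within each list than those of all genes with an island at an end. The median Hdac1 value at members was 6.20e-39, against 6.18e-52 over all genes with Hdac1 at an end. In the ranking of all Hdac1 islands from the lowest value up, the median member stood at 27.1%, against 20.4% for all genes. The median Hdac1 width was 2.0 kb (quartiles 1.6 and 2.6 kb) at members, against 2.4 kb (1.6 and 3.4 kb) over all genes. The Hdac2 islands of the 13 members had a median width of 2.0 kb, against 2.4 kb over all genes with Hdac2. Their median value was 9.38e-06 against 2.10e-08, and their median rank 80.6% against 50.2%. Most Hdac2 islands at members thus stood in the weaker part of the Hdac2 list.

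The 13 members with both antibodies had stronger Hdac1 islands than the 46 with Hdac1 alone. The median Hdac1 value was 5.19e-75 and the median width 2.6 kb where Hdac2 was present, and 3.56e-31 and 1.8 kb where it was not. All genes with Hdac1 at an end were split into 5 classes of equal size by the value of that island. In the class with the lowest values, Hdac2 was found at 4 of 5 members, or 80.0%, against 85.3% of all genes there. In the next it was found at 7 of 11 members, or 63.6%, against 68.2%, and in the middle class at 2 of 10, or 20%, against 53.1%. The 2 classes with the highest values held 33 members, and none of them had Hdac2, against 26.0% of all genes there. Among mitochondrial ribosomal protein genes, another large class of nuclear genes for mitochondrial proteins, the counts from the lowest to the highest values were 6 of 9, 10 of 19, 8 of 19, 2 of 16 and 1 of 11. Members lay close to all genes in the 2 classes with the lowest values and below them in the other 3.

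**Figure D3:**
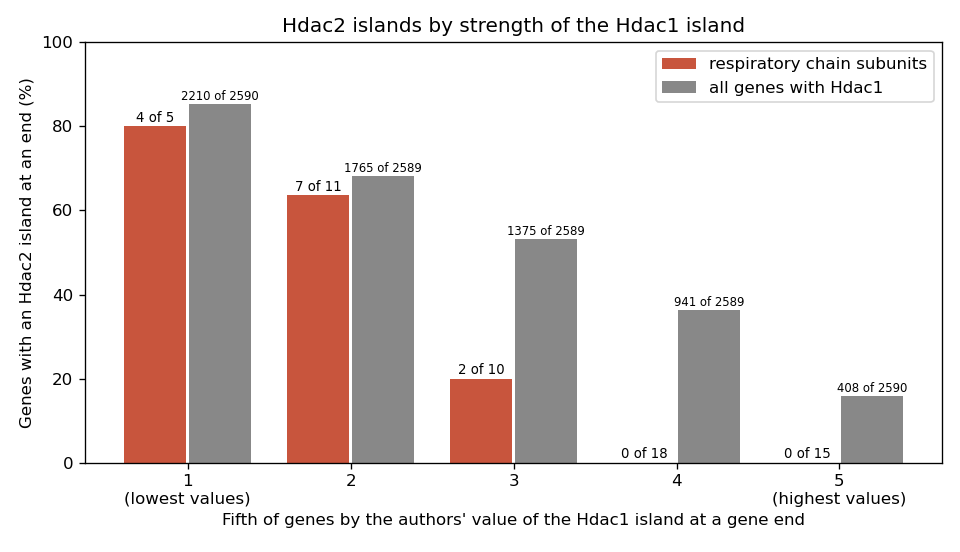
Share of genes (%) with an Hdac2 island at an end, for 5 equal classes of all genes by the authors' value of the Hdac1 island at an end, from the lowest values on the left; red bars are the respiratory chain subunits and grey bars all genes with Hdac1, with counts above. The red bar is close to the grey bar in the 2 classes on the left and at 0 in the 2 on the right.

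Width gave the same order. Hdac2 was found at 0 of 11 members whose Hdac1 island was 1.4 kb wide or less, against 20.7% of all genes with such an island. It was found at 2 of 21 members with 1.6 to 2.0 kb, against 38.4%, and at 6 of 17 with 2.2 to 2.8 kb, against 53.5%. At 3.0 kb or more it was found at 5 of 10 members, against 75.8%. In every width class the share of members was below that of all genes.

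For the 46 members with Hdac1 alone, the nearest Hdac2 island lay at a median of 31.9 kb from the gene, with a range from 2.60 to 242.7 kb. It lay within 5 kb at 2 genes (Uqcr11 and Cox6a1) and beyond 20 kb at 33. A window of 5 kb would thus have taken in 2 of the 46.

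Of the members, 52 have a RefSeq promoter, which gives their strand and start site. Those with none in the table include Cox4i1, Cox4i2, Cox6a2, Cox6c, Cox8c, Ndufa2, Ndufb9, Ndufs1, Sdhc, Uqcrb, Uqcrc2 and Uqcrq. An Hdac1 island lay within 1 kb of the start site at 50 of 52 members, or 96.2%, against 62.3% of the 16457 genes with a promoter in the table. The exceptions were Cox7b2 and Cox8b. An Hdac2 island lay there at 11 of 52, or 21.2%, against 32.7%. All 50 Hdac1 islands and all 11 Hdac2 islands covered the start site itself. Over all genes, 97.1% of the Hdac1 islands at start sites and 96.0% of the Hdac2 islands covered it.

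Islands at members were centred close to the start site. The median Hdac1 island had its edges at −796.5 and 1021 bases from the start site and its centre at 71.5 bases, with positive distances in the direction of the gene. Over all genes the edges were at −900 and 1320 bases and the centre at 211 bases. The 11 Hdac2 islands had median edges at −1062 and 758 bases and a median centre at −250.5 bases, against edges at −951 and 1263 bases and a centre at 151.5 bases over all genes. The Hdac2 islands at members thus reached less far into the gene than those of all genes, on 11 islands with edges in steps of 200 bp. Among the 48 members with a known strand and an Hdac1 island at a span end, the island lay at the start end alone in 40 and at both ends in 8. Over all genes it lay at the start end alone in 8437 of 10324 and at both in 1566, so the shares were close. For Hdac2 the counts were 9 at the start end, 1 at both (Ndufv2) and 1 at the other end (Ndufb10), against 4688, 536 and 334 of 5558 over all genes.

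**Figure D4:**
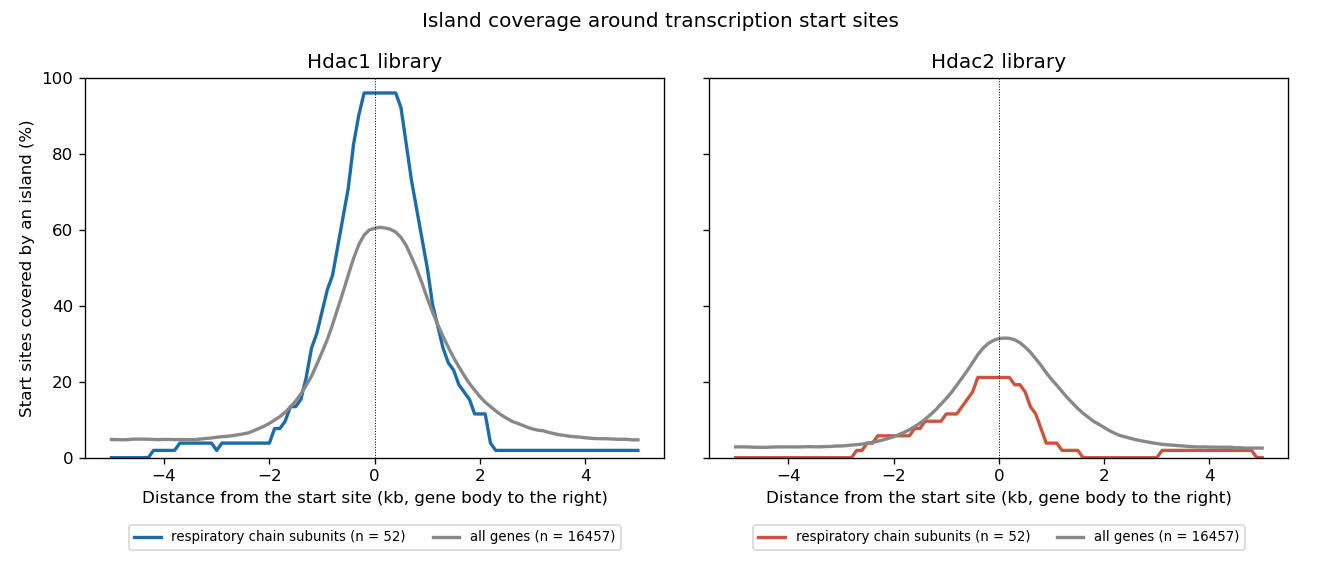
Share of start sites (%) with an island at each distance from the start site, from 5 kb before to 5 kb after it, in the Hdac1 library (left) and the Hdac2 library (right); coloured lines are the 52 subunit genes with a start site and grey lines all 16457 genes. The members' line peaks at 96.2% for Hdac1 and at 21.2% for Hdac2, against 60.7% and 31.5% for all genes.

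Many of these islands are shared with a neighbouring gene. The lowest-value Hdac1 island at an end also held an end of another protein-coding gene at 28 of 59 members, or 47.5%, against 27.9% of all genes with Hdac1. For Hdac2 this was so at 7 of 13 members, or 53.8%, against 29.3%. At these members an island cannot be assigned to the subunit gene alone, and the 9 lowest Hdac1 values at span ends of the members, from Uqcrh to Uqcrq, all came from islands of this kind. The body island over the start site of Cox5a, at 1.28e-79, falls among these values and held no end of another gene.

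Promoters of the members were richer in CpG than those of all genes. The median ratio of observed to expected CpG was 0.815 in the 52 members and 0.597 in all genes, and it was above 0.6 in 42 members (80.8%) against 49.8% of all genes. The GC content was close, with medians of 57.3% and 56.7%. By islands at the start site, the median CpG ratio was 0.920 in the 11 members with both antibodies and 0.807 in the 39 with Hdac1 alone. In Cox7b2 and Cox8b, which had no Hdac1 there, it was 0.564 and 0.115. Over all genes the median was 0.783 with Hdac1 at the start site and 0.182 without it. The 2 members without Hdac1 are too few to set an order. The lowest ratio among members with Hdac1 alone, 0.333, was below that of Cox7b2. Among promoters with Hdac1 and a CpG ratio above 0.6, Hdac2 was found at 11 of 42 members, or 26.2%, against 55.6% of 7919 genes. The Hdac2 share of members was thus also below that of all genes in this subset. Whether CpG content bears on that share was not tested.

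The motifs of known regulators were searched in these 300 bases, on both strands, with overlapping matches of different motifs all counted. The Nrf1 motif GCATGCGC was matched in 7 of 52 members, or 13.5%, against 3.66% of all genes and 5.46% of genes with Hdac1 at the start site. The Yy1 motif AAGATGGC was matched in 7 members, or 13.5%, against 3.21% of all genes and 4.37% of genes with Hdac1. The ETS motif CCGGAAG, the core bound by Gabp, was matched in 11 members, or 21.2%, against 12.3% and 18.1%. The GC box GGGCGG, the core bound by Sp1, was matched in 22 members, or 42.3%, against 47.3% of all genes and 68.3% of genes with Hdac1. Nrf1 and Yy1 letters were thus more frequent in members than in all genes, and GC boxes were less frequent than in other genes with Hdac1.

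Among members with Hdac1 at the start site, Hdac2 was found at 1 of 7 with the Nrf1 motif and 10 of 43 without it. For Yy1 the counts were 1 of 7 and 10 of 43, for ETS 2 of 11 and 9 of 39, and for the GC box 4 of 21 and 7 of 29. With so few matches, no order between the motifs was read from these counts. Over all genes with Hdac1 at the start site, Hdac2 was found at 49.8% with the Nrf1 motif and 51.5% without it. The shares with and without the motif were 46.2% and 51.6% for Yy1, and 47.1% and 52.3% for ETS. For the GC box they were 54.9% and 43.8%. Of the promoters printed above, Ndufv2 holds GC boxes, Cox8a and Uqcrh hold the ETS motif, Sdhd holds both, and Cox8b holds none of the 4 motifs.

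Other genes of respiration were set beside the subunits and beside all genes, of which 62.7% carried Hdac1 and 33.4% Hdac2. All 14 assembly factors of complex I carried Hdac1 at an end and 5 carried Hdac2 (Ecsit, Ndufaf2, Ndufaf3, Ndufaf5 and Timmdc1). All 4 assembly factors of complex II had Hdac1, and Hdac2 was found at 1, Sdhaf2, although at none of the subunit genes of that complex. All 6 assembly factors of complex III had Hdac1 and 4 had Hdac2 (Bcs1l, Ttc19, Uqcc2 and Uqcc3), and the 22 of complex IV had Hdac1 at 22 and Hdac2 at 10. Cycs, the electron carrier cytochrome c, had both antibodies, and Cyc1, the cytochrome c1 of complex III, which the symbol rule does not take in, had Hdac1 alone.

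The ATP synthase genes, which use the proton gradient made by the chain, had Hdac1 at 17 of 17 and Hdac2 at 10 of 17, or 58.8%, against 20% of the subunit genes. In the tricarboxylic acid cycle, which supplies NADH and succinate, Hdac1 was found at 12 of 13 genes and Hdac2 at 4, among them Dlst, Fh1 and Suclg2. Of 12 regulators of respiratory genes, 11 had Hdac1 and 10 had Hdac2. The 10 were Nrf1, Gabpa, Yy1, Esrra, the coactivators Ppargc1a, Ppargc1b and Pprc1, and Tfam, Tfb1m and Tfb2m, which act on mitochondrial DNA; Polrmt had Hdac1 alone and Gabpb1 neither at a span end. With start sites counted as well as span ends, all 12 regulators had Hdac1, Gabpb1 among them, and 11 had Hdac2. Gabpa and the ATP synthase gene Atp5j were counted from the same pair of islands. Mitochondrial ribosomal protein genes had Hdac1 at 74 of 75 and Hdac2 at 27, or 36.0%, near the 33.4% of all genes. Among those with Hdac1, the Hdac2 share was 36.5%, against 51.7% over all genes with Hdac1 and 22.0% in the subunits. Cytosolic ribosomal protein genes had Hdac1 at 77 of 80 and Hdac2 at 41, or 51.2%. In each of these lists of respiratory and ribosomal genes, the share with Hdac1 was 91.7% or more, against 62.7% of all genes. The share with Hdac2 ran from 25% in the assembly factors of complex II to 83.3% in the regulators. It was 20% in the subunits and 33.4% in all genes. The assembly factors of complex I (35.7%) and the tricarboxylic acid cycle (30.8%) lay near all genes.

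**Figure D5:**
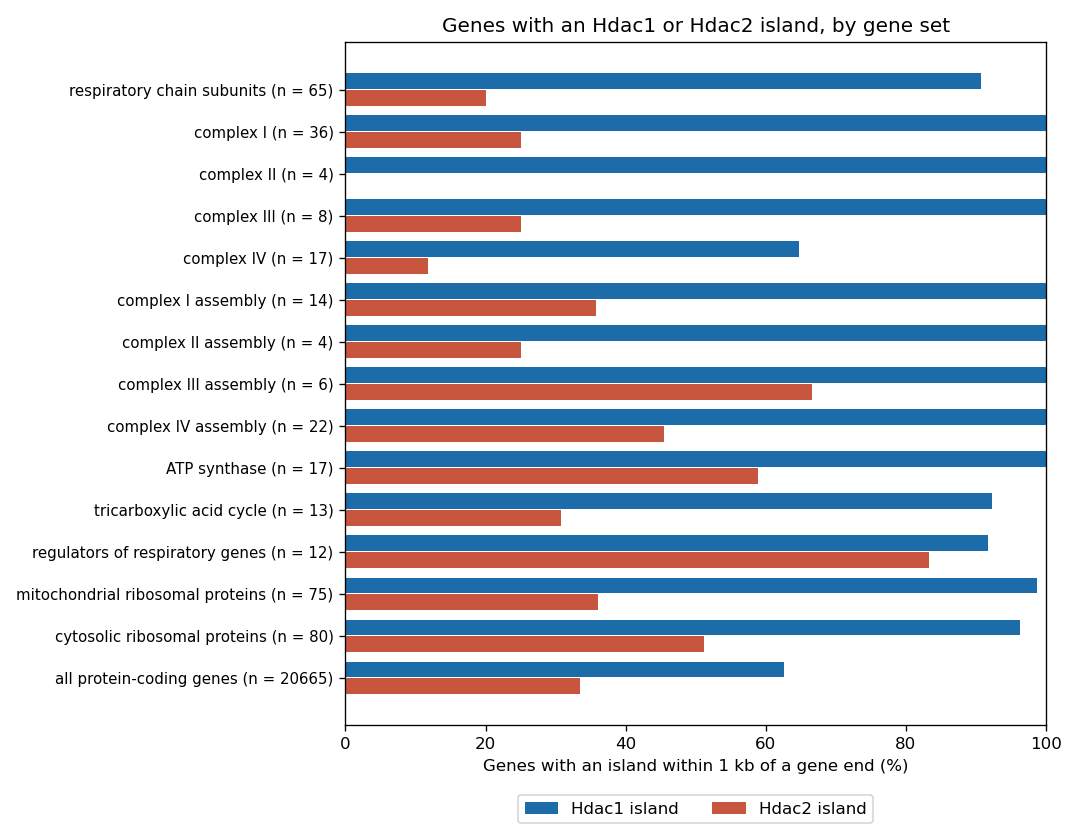
Share of genes (%) with an Hdac1 island (blue) and an Hdac2 island (red) within 1 kb of a gene end, for the subunit genes, each complex, other gene lists of respiration, ribosomal protein genes and all genes, with the number of genes in each. Hdac1 is at 90.8% for the subunits and 62.7% for all genes, while Hdac2 is at 20% and 33.4%.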

How the data were processed

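Island lists of 2 libraries, 1 per antibody, were used as the authors deposited them. Per the labels' protocols, libraries started from 500 pg of DNA and had 12 amplification cycles and further cycles until the yield was enough, so reads are not independent molecules. Per the submitters' processing notes, the build was mm10 and the tools named are SICER, bedtools 2.17, SAMtools 1.3.1, BWA 0.7.5a and FastQC. SICER joins enriched windows into broad islands with coarse edges. Its settings, the background library and the read depth were not given in the sources used here. Each island has in the deposited lists a position and 1 value, which is a p-value or a q-value; the sources do not say which. IgG and H3K4me3 immunoprecipitations were not analysed here.

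The deposited starts are 0-based and the ends are the last base, and positions here are 1-based. Island edges fall in steps of 200 bp. Genes were RefSeq protein-coding genes of GRCm38.p6, which has the coordinates of mm10, as spans without exons, so exons and introns could not be separated. A gene was counted where an island shared at least 1 bp with the 1 kb on either side of a span end, and where there were several such islands the lowest value is reported. Start sites and promoters came from the RefSeq promoter table, which holds 16457 genes of chromosomes 1 to 19. Counting was tested on simulated data with planted islands. Counts of genes on the real lists, 12947 for Hdac1 and 6907 for Hdac2, equalled those of bedtools 2.31.1. Scripts ran in Python 3.11.15 with pandas 2.3.3, numpy 2.4.6, matplotlib 3.10.9 and scipy 1.17.1.

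The members, the lists and the comparisons were chosen with earlier results of these data known. Named with coordinates are the 3 members lowest in each library, those without Hdac1 at an end, with body islands alone or with islands that do not overlap, the core subunits of complex I, the Sdh genes, Uqcrc1, Uqcrc2, Uqcrfs1 and the isoform pairs of complex IV. Ndufb10 was added after its values were seen. Individual results of some genes in these lists are counted but not shown. Alternatives were other windows, an overlap of 200 bp, the upper 50% of islands by value, islands up to 20 kb, islands merged within 1 kb, start sites alone, and, chosen after seeing the data, span ends or start sites.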

Additional observations from a re-analysis of the deposited data

How the results depend on the processing

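No paired analysis was possible because each antibody has 1 library and the labels give no replicate numbers. With the upper 50% of islands by value, Hdac2 at an end fell to 5 members, against 13 with all islands, and both antibodies together likewise to 5. Those left were Ndufa4, Ndufab1, Ndufs7, Uqcrc1 and Cox8a. Hdac1 was at 50 members in that setting, and the shares of all genes were 54.4% for Hdac1 and 16.6% for Hdac2. Without provisional and chemoreceptor symbols, the share of all genes was 70.1% for Hdac1 and 36.8% for Hdac2. In the alternatives over all 65 members Hdac1 was at 50 to 61, and outside the stricter list Hdac2 was at 12 to 16. Start sites alone, known for 52 members, gave 50 with Hdac1 (96.2%) and 11 with Hdac2 (21.2%). A window of 5 kb gave 61 members with Hdac1 and 16 with Hdac2, against 68.6% and 40.3% of all genes. Taking the widest island per gene gave a median Hdac1 width of 2.0 kb and a median Hdac2 width of 2.2 kb, against 2.0 kb each.

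With 1 library per antibody, no value here has a measured error. The read depth is unknown, so an absent island is one that was not called at that depth. Most Hdac2 islands at members stood in the weaker part of their list, and 8 of 13 were lost in its stronger part. The antibodies and their amounts cannot be told apart from the proteins they bind.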

Other observations

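Subunit genes that the symbol rule or the chromosome range leaves out had the following islands at their ends. The X-linked complex I genes Ndufa1 and Ndufb11 had Hdac1 islands of 1.6 kb and 6.48e-46 and of 1.8 kb and 4.26e-41, with no Hdac2 island. Cox7b, the common form beside Cox7b2, is also on the X chromosome and had an Hdac1 island of 1.8 kb and 8.60e-11, with no Hdac2 island. All 3 X-linked genes thus had Hdac1 alone. Ndufa4l2, a paralog of Ndufa4 known as a target of hypoxia-inducible factor, had an Hdac1 island of 5.8 kb and 1.50e-35 and an Hdac2 island of 5.4 kb and 0.000118. Ndufb4b and Ndufb4c, which resemble Ndufb4, had an island of neither antibody.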
